A study of Mus musculus with 3 samples.

Results

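The Slco and Slc22a genes encode the organic anion and organic cation transporters, and all genes whose symbol starts with Slco or Slc22a followed by a number were taken, 39 of the 32285 features measured (14 Slco and 25 Slc22a genes). Their RNA was followed in nuclei from frozen livers of C57BL/6N males (8 weeks of age when the diets began) by single-nucleus RNA sequencing, with 1 library for each of 3 groups. SD stands for the standard diet. MASLD stands for a diet that induces steatotic liver disease, fed for 18 weeks together with a sugar drink, which one label names as sucrose and another as glucose and fructose. Aza-TdC stands for that diet and drink plus Aza-TdC, given daily by oral gavage at 2 mg per kg from week 14 to week 18. Aza-TdC is a cytidine analogue that depletes the DNA methyltransferase DNMT1. How many mice stand behind each library is not given, so pooled animals cannot be told from single ones. With 1 library per group no test between groups was possible, and every interval below is a 95% interval that covers counting error only, not the spread between mice.

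Slco genes encode the OATP family, which takes up bile salts, conjugated bilirubin, steroid and thyroid hormone conjugates, prostaglandins and many drugs without using the sodium gradient. Slc22a genes encode the organic cation transporters, which carry monoamines and charged drugs, the carnitine and ergothioneine transporters, and the organic anion transporters. In the liver these proteins sit mainly on the blood-facing membrane of the hepatocyte, where uptake through them precedes metabolism and export into bile. Liver lobules are zoned from the portal tract, where blood enters, to the central vein, and many uptake and drug-handling genes are expressed more strongly near the central vein.

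Each library had 6928 to 7598 barcodes and 43569644 to 51789068 UMIs, and 6726 to 7591 nuclei were kept. Between 20 and 26 barcodes per library also occurred in another library. The libraries held 6858 (SD), 5974 (MASLD) and 6800 (Aza-TdC) hepatocyte-like nuclei, with 41292969 to 49657813 UMIs, and their median mitochondrial shares were 0.124%, 0.188% and 0.0816%. They separated by library: SD nuclei lay in clusters 0, 1, 2 and 4, MASLD nuclei mostly in clusters 13, 14, 16 and 12, and Aza-TdC nuclei mostly in clusters 15, 11, 16 and 12. Clusters 13 and 14 each had 1 marker of another class (Spp1 and Themis) among their 10 leading genes. Hepatocyte markers were absent from the 10 leading genes of every hepatocyte-like cluster, in all 3 libraries. Values of different libraries thus set one group of numbered clusters against another, and what sets a cluster apart cannot be told apart from what sets its library apart. Each of these clusters held 7 to 10 of the 10 hepatocyte markers at 0.25 times or more of their highest level among clusters. Clusters of the other classes held 6 to 10 of them as well, so this measure does not set the hepatocyte-like clusters apart, and their name rests on no other class's markers standing out in them. Cluster 8 (131 MASLD and 101 Aza-TdC nuclei) was left unnamed and out of the class for its low depth, a median of 1018 UMIs. It held 10 of the 10 hepatocyte markers at that mark, and they stood at a median of 1.471 times their hepatocyte-like level. Hba-a1 and Hbb-bs were among its 10 leading genes.

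In hepatocyte-like nuclei 24 of the 39 genes had at least 20 UMIs over the 3 libraries, 7 Slco and 17 Slc22a genes. Of the other 15, the kidney transporter gene Slc22a6 and Slco4c1 had 0 UMIs in all 3 libraries. The others under 20 UMIs were Slco1a5, Slco1a6, Slco1c1, Slco4a1, Slco5a1, Slco6c1, Slc22a2, Slc22a8, Slc22a12, Slc22a13, Slc22a16, Slc22a19 and Slc22a20. None of these 15 had 20 UMIs in any other nucleus class. A count of 0 allows a level of up to 0.0604 to 0.0727 CPM (a gene's UMIs scaled to 1e+06 UMIs of the class) at these depths. The 39 genes sit partly in blocks: 6 Slco genes lie together on chromosome 6, and 10 Slc22a genes on chromosome 19. On chromosome 17 of GRCm38, Slc22a3 spans chr17:12418960-12507704 and Slc22a7 chr17:46432183-46438457, both on the minus strand.

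Sequences just upstream of the start are shown for the genes on which the results turn. They are the 3 expressed genes of the chromosome 6 block, the 5 neighbours Slc22a26 to Slc22a30 of the chromosome 19 block, whose levels differed between libraries in different directions, and the prostaglandin transporter gene Slco2a1. Each is the 250 bases before the RefSeq start in GRCm38.p6, written 5′ to 3′ on the gene's strand, with CG dinucleotides, the sites that DNMT1 maintains in a methylated state, in capitals. Methylation itself was not measured.
Slco1b2, chr6:141629268-141629517, plus strand: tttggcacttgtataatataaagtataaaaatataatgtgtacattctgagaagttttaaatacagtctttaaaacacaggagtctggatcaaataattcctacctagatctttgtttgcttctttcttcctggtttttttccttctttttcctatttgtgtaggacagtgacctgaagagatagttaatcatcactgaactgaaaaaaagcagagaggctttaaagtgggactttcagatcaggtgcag
Slco1a4, chr6:141856221-141856470, minus strand: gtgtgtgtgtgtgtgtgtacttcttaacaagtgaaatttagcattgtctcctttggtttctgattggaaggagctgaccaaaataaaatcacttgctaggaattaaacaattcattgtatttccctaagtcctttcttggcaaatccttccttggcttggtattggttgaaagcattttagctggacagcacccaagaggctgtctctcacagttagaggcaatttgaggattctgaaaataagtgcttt
Slco1a1, chr6:141946963-141947212, minus strand: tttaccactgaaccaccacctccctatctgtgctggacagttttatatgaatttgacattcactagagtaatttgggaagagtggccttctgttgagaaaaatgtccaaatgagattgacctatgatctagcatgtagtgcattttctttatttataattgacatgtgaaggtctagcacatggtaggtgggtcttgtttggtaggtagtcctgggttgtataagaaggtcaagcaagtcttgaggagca
Slc22a26, chr19:7802668-7802917, minus strand: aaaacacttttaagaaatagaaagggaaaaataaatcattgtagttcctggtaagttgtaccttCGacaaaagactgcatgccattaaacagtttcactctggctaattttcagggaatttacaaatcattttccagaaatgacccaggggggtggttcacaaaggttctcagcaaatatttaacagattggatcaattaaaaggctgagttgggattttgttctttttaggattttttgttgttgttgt
Slc22a27, chr19:7966028-7966277, minus strand: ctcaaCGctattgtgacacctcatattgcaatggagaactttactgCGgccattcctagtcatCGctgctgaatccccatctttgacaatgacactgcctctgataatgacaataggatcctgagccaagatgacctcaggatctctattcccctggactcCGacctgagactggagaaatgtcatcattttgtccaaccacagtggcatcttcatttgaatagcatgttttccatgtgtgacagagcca
Slc22a28, chr19:8131983-8132232, minus strand: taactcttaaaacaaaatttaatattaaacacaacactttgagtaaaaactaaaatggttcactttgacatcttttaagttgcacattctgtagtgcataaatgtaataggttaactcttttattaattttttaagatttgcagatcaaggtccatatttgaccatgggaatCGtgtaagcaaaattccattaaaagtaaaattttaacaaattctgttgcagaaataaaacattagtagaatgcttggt
Slc22a29, chr19:8218901-8219150, minus strand: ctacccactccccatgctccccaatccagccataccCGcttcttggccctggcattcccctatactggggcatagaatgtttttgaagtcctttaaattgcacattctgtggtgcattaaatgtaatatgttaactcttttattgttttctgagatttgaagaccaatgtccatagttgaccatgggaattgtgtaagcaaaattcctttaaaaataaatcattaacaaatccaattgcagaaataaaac
Slc22a30, chr19:8405106-8405355, minus strand: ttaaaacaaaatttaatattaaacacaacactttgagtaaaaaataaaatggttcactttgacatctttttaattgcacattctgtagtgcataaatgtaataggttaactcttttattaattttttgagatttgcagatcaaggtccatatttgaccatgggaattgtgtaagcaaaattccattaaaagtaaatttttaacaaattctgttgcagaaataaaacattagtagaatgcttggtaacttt
Slco2a1, chr9:103008237-103008486, plus strand: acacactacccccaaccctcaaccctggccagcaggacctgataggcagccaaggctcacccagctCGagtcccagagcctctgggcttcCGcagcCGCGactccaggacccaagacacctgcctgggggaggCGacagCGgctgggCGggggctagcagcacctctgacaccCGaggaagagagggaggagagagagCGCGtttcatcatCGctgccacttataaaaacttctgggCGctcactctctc

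The promoters of the 3 chromosome 6 genes hold 0 CG. In the chromosome 19 block Slc22a30 holds 0, Slc22a26, Slc22a28 and Slc22a29 hold 1 each, and Slc22a27 holds 4. The Slco2a1 window holds 12, and its RefSeq start lies 19775 bases inside the gene as GENCODE annotates it. Of the 24 detected genes 20 had a promoter in the table (34 of all 39), with a median of 3.5 CG against 6 over all 32820 promoters. At most 1 CG was found in 9 of the 20, against 18.84% of all promoters. At the other end 4 of the 20, Slc22a5, Slc22a4, Slc22a15 and Slc22a23, held at least 20, against 17.94% of all promoters. The Slc22a28 and Slc22a30 windows were 92.97% identical, Slc22a28 and Slc22a29 65.06%, and Slc22a26 and Slc22a27 47.53%. Both strands were searched for 4 motifs. The HNF1 half-site GTTAAT was found in Slco1b2 and Slc22a29, 2 of the 20, and in 6.436% of all promoters. The STAT motif TTCNNNGAA was found in Slco1b2, Slc22a26 and Slc22a15, 3 of the 20, and in 7.015% of all, and in Slco1b2 it does not overlap the HNF1 half-site. The TCF/LEF motif ATCAAAG (3.209% of all) and the DR1 motif of nuclear receptors, AGGTCA repeated after 1 base (0.0335% of all), were found in 0 of the 20. A match is one of letters in this window and no evidence of binding.

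The first comparison, MASLD against SD, addressed the diet. With all hepatocyte-like clusters kept, Slco1b2, Slco1a4, Slco1a1 and Slco2b1 differed by under 2-fold in total. The differences of over 2-fold lay in other members, among them the hepatocyte anion transporter gene Slc22a7. Of the 39 genes 23 were measured, with at least 20 UMIs over both libraries. A log2 ratio of at least 1 was reached by 4 (17.4%), Slc22a17, Slc22a22, Slc22a29 and Slc22a27, near the background of 13.5% of 15773 measured genes that were as much higher. A log2 ratio of -1 or less was reached by 3 (13.0%), Slc22a7, Slco3a1 and Slco2a1, against a background of 5.21% (18.7% either way). The median log2 ratio was -0.02 for the 23 genes and 0.15 for all measured genes. The second comparison, Aza-TdC against MASLD, addressed the drug on top of the diet. It also measured 23 genes, of which Slc22a26, Slco2a1 and Slco3a1 (3 genes, background 3.16% of 15940) were higher by at least 1 and Slc22a29 (1 gene, background 5.25%) was lower, with 8.41% of all genes past 2-fold either way. The median was 0.01 against -0.09 for all genes. Against SD, the Aza-TdC library had 4 genes higher (Slc22a17, Slc22a26, Slc22a22 and Slc22a27, background 10.6%) and 1 lower (Slc22a7, background 5.14%, 15.7% either way), of 23, with a median of 0.19 against 0.06. The 3 comparisons share libraries and are not independent of each other.

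**Figure D1:**
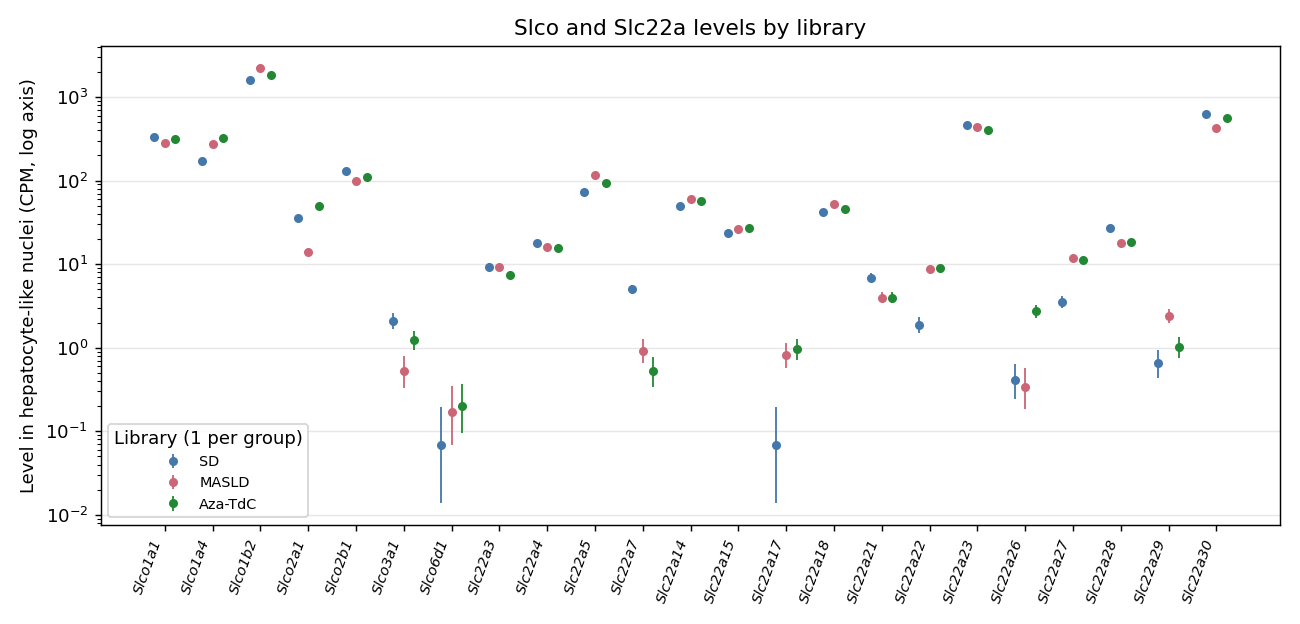
Level of 23 of the 24 detected genes in hepatocyte-like nuclei, in CPM on a log axis, for the SD, MASLD and Aza-TdC libraries; bars are exact Poisson 95% intervals, which cover counting error only. Slco1b2 lies highest in each library, at 1604, 2232 and 1831 CPM, while Slc22a7 lies at 4.98 CPM in SD and under 1 CPM in both MASLD diet libraries. CPM are not scaled to gene length, so heights compare libraries within a gene, not genes with each other.

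Among the OATP genes, Slco1b2, the main liver uptake transporter for conjugated bilirubin, bile salts and statins, had 1604 CPM in SD, 2232 CPM in MASLD and 1831 CPM in Aza-TdC. Its log2 ratio was 0.48 (0.46 to 0.49) in MASLD over SD and -0.29 (-0.30 to -0.27) in Aza-TdC over MASLD, so both MASLD diet libraries stood above SD but under 2-fold. Slco1a4, whose product carries bile salts and cardiac glycosides and which the xenobiotic receptor PXR induces, had 174 CPM in SD, 277 CPM in MASLD and 320.03 CPM in Aza-TdC. Slco1a4 was thus lowest in SD, with log2 ratios of 0.67 (0.63 to 0.71) and 0.21 (0.17 to 0.24) in the same order. Slco1a1, the male-predominant OATP of mouse liver, was near level in total, at 330.5 CPM in SD, 282 CPM in MASLD and 313 CPM in Aza-TdC. Slco2b1, which carries steroid sulfates, had 129 CPM in SD, 98.8 CPM in MASLD and 110 CPM in Aza-TdC, a log2 ratio of -0.39 (-0.45 to -0.33) for the diet. Slco2b1 overlaps the antisense genes Gm34280 and Gm15635, and whether strand was used in counting is not given. Summed over all hepatocyte-like nuclei, none of these 4 genes reached a 2-fold difference between any 2 libraries. With clusters 13 and 14, those led by another class's marker, left out, Slco1b2 reached 1.06 in MASLD over SD. That setting leaves 452 of the 5974 MASLD nuclei, of which 328 lie in cluster 16, led by central vein genes such as Slc1a2. Slco1b2 was itself higher toward the central vein, as given below, and the part of this in the 1.06 was not tested.

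Slco2a1, the prostaglandin transporter gene, was the only OATP gene past 2-fold in both directions with over 500 UMIs in every library. It had 1591 UMIs and 35.9 CPM in SD, 585 UMIs and 14.2 CPM in MASLD, and 2444 UMIs and 49.2 CPM in Aza-TdC. The MASLD library was the low one, 2.53-fold under SD (log2 ratio -1.34, -1.48 to -1.20), and Aza-TdC stood above both, with log2 ratios of 1.80 (1.67 to 1.93) over MASLD and 0.46 (0.36 to 0.55) over SD. With clusters 13 and 14 left out, the MASLD over SD value was -2.39 and the Aza-TdC over MASLD value 2.84. The 452 MASLD nuclei left then lie mostly (328) in cluster 16, led by central vein genes. Slco2a1 was lower toward the central vein, as given below, and the part of this in those 2 values was not tested. Slco2a1 is read more strongly in endothelial-like nuclei (158 CPM over the 3 libraries) and mesothelial-like nuclei (315 CPM) than in hepatocyte-like nuclei (34.1 CPM). In endothelial-like nuclei its order was alike, at 192, 101 and 195 CPM in SD, MASLD and Aza-TdC, over 58, 47 and 82 UMIs. The make-up of that class differed between libraries too. In a finer clustering (Leiden resolution 2) its cluster led by Vwf held 13, 5 and 37 nuclei, and the one with Stab2 and Clec4g held 98, 169 and 139. In macrophage-like nuclei Slco2a1 had 1 UMI in SD, 10 UMIs in MASLD (13.6 CPM) and 72 UMIs in Aza-TdC (63.1 CPM), in a class whose make-up differed between libraries. Whether RNA of those nuclei enters the hepatocyte-like values was not tested. Slco3a1, a broadly read OATP gene, had 93 UMIs and 2.10 CPM in SD, 22 UMIs and 0.533 CPM in MASLD, and 61 UMIs and 1.23 CPM in Aza-TdC. Its log2 ratios were -1.98 (-2.72 to -1.29) and 1.21 (0.48 to 1.98). With nuclei classed by their own markers, at most 1 UMI of any other class, they were -0.30 and -0.52, so neither was past 2-fold and the second changed sign. That setting leaves 1189 MASLD nuclei with 6261066 of the 41292969 UMIs of the class. Slco3a1 had only 22 UMIs in that whole class, so both values rest on few UMIs. In nuclei up to the lowest library's median mitochondrial share, an alternative chosen after seeing the data, the 2 log2 ratios of Slco3a1 were -3.69 and 2.64. Slco3a1 stood at 287 CPM in stellate-like, 179 CPM in T and NK-like and 115 CPM in endothelial-like nuclei against 1.30 CPM in hepatocyte-like nuclei. Slco6d1 had 3, 7 and 10 UMIs in SD, MASLD and Aza-TdC, too few for a ratio.

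Among the carnitine and monoamine transporters, differences stayed under 2-fold, except for Slc22a3 with clusters 13 and 14 left out. Slc22a5, the high-affinity carnitine transporter, had 73.5, 116 and 92.9 CPM in SD, MASLD and Aza-TdC and was highest in MASLD, with log2 ratios of 0.66 (0.60 to 0.72) and -0.32 (-0.38 to -0.26). Slc22a3, the extraneuronal monoamine transporter, had 9.32, 9.20 and 7.47 CPM in the same order. Without those clusters its log2 ratios were 3.02 in MASLD over SD and -3.33 in Aza-TdC over MASLD. The 452 MASLD nuclei left then lie mostly (328) in cluster 16, led by central vein genes. Slc22a3 is itself among the leading genes of that cluster, so these 2 values reflect which nuclei were left. Slc22a4, the ergothioneine transporter, had 18.0, 15.9 and 15.8 CPM. Slc22a21, a carnitine transporter next to Slc22a4 and Slc22a5 on chromosome 11, had 6.92 CPM in SD against 3.97 and 3.99 CPM, a log2 ratio of -0.80 (-1.08 to -0.52) for the diet. Slc22a4, Slc22a5 and Slc22a21 are close copies, as are the Slco1a genes and Slc22a26 to Slc22a30, and reads that could be split between copies make their separate values uncertain.

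The organic anion transporter Slc22a7, which carries anionic drugs and metabolites at the blood side of the hepatocyte, was the gene lowest with the diet. It had 221 UMIs and 4.98 CPM in SD, 38 UMIs and 0.92 CPM in MASLD, and 26 UMIs and 0.524 CPM in Aza-TdC. Both MASLD diet libraries stood below SD, MASLD by 5.42-fold (log2 ratio -2.44, -2.97 to -1.94), and Aza-TdC at a log2 ratio of -3.25 (-3.90 to -2.66). Under the 9 alternatives to the filters, scaling and classes its ratio for the diet lay between -2.56 and -2.03. Slc22a22, a prostaglandin-selective anion transporter gene, was the reverse, with 83 UMIs and 1.87 CPM in SD, 363 UMIs and 8.79 CPM in MASLD, and 446 UMIs and 8.98 CPM in Aza-TdC. It was 4.70-fold higher with the diet (log2 ratio 2.23, 1.88 to 2.59). In total the drug library did not differ from MASLD beyond counting error (0.03, -0.17 to 0.23).

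The 5 neighbours Slc22a26 to Slc22a30 on chromosome 19, organic anion transporters of an expanded mouse cluster, did not move together. Slc22a30 was the most read, at 631 CPM in SD, 427 CPM in MASLD and 557 CPM in Aza-TdC, lowest in MASLD (log2 ratios -0.56, -0.59 to -0.54, and 0.38, 0.36 to 0.41). Slc22a28, whose promoter is the most like it, had 27.4 CPM in SD and 18.1 and 18.3 CPM in the MASLD diet libraries. It was lower with the diet (-0.60, -0.73 to -0.46) and level in total between the last 2 (0.01, -0.13 to 0.15). Slc22a27 had 158 UMIs and 3.56 CPM in SD, 493 UMIs and 11.9 CPM in MASLD, and 555 UMIs and 11.2 CPM in Aza-TdC, so it was higher in both MASLD diet libraries. Its log2 ratio for the diet was 1.74 (1.48 to 2.01), a 3.35-fold difference. Slc22a29 was high in MASLD alone, with 29 UMIs and 0.654 CPM in SD, 100 UMIs and 2.42 CPM in MASLD, and 50 UMIs and 1.01 CPM in Aza-TdC (1.89, 1.28 to 2.54, and -1.27, -1.79 to -0.76). In nuclei up to the lowest library's median mitochondrial share these were 1.26 and -0.85, the latter no longer past 2-fold. Slc22a26 was high in the Aza-TdC library alone, with 18 UMIs and 0.406 CPM in SD, 14 UMIs and 0.339 CPM in MASLD, and 135 UMIs and 2.72 CPM in Aza-TdC. It stood 8.02-fold above MASLD (log2 interval 2.21 to 3.91), and its log2 ratio over SD was 2.74 (2.03 to 3.54). With clusters 13 and 14 left out, the log2 ratio over MASLD was 0.27. That setting leaves 452 MASLD nuclei, of which 328 lie in cluster 16, led by central vein genes such as Slc1a2 and Glul, and it also moved other pericentral genes. In MASLD over SD it gave 0.71 for Slc22a28, 3.26 for Slc22a29 and 3.06 for Slc22a27. In Aza-TdC over MASLD it gave -1.28 for Slc22a28, -2.63 for Slc22a29 and -1.40 for Slc22a27, so Slc22a27 and Slc22a28 were then past 2-fold.

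The other Slc22a genes were mostly level. Slc22a23, an orphan transporter gene, had 459, 436 and 399 CPM in SD, MASLD and Aza-TdC, and Slc22a18, an imprinted gene, 42.6, 52.9 and 46.1 CPM. Slc22a15 had 23.4, 26.2 and 26.8 CPM, and Slc22a14 49.0, 59.6 and 57.3 CPM. The annotated span of Slc22a14 covers Slc22a13, Oxsr1 and Myd88 on its strand and Acaa1a and Xylb on the other, and its RefSeq start lies 175158 bases away from the GENCODE start, so its value is uncertain. Slc22a17, the receptor gene for the iron-carrying protein lipocalin 2, had 3 UMIs in SD, 34 UMIs in MASLD and 48 UMIs in Aza-TdC, or 0.0677, 0.823 and 0.967 CPM. The log2 ratio of MASLD over SD was 3.61 (1.94 to 5.95), with only 3 UMIs behind the SD value, and 2.65 with nuclei classed by their own markers. Slc22a17 is higher in mesothelial-like (17.5 CPM), macrophage-like (15.7 CPM) and endothelial-like nuclei (7.58 CPM) than in hepatocyte-like nuclei (0.628 CPM). The SD library had 33 macrophage-like nuclei, the MASLD library 244 and the Aza-TdC library 324, and their part in the Slc22a17 values was not tested.

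**Figure D2:**
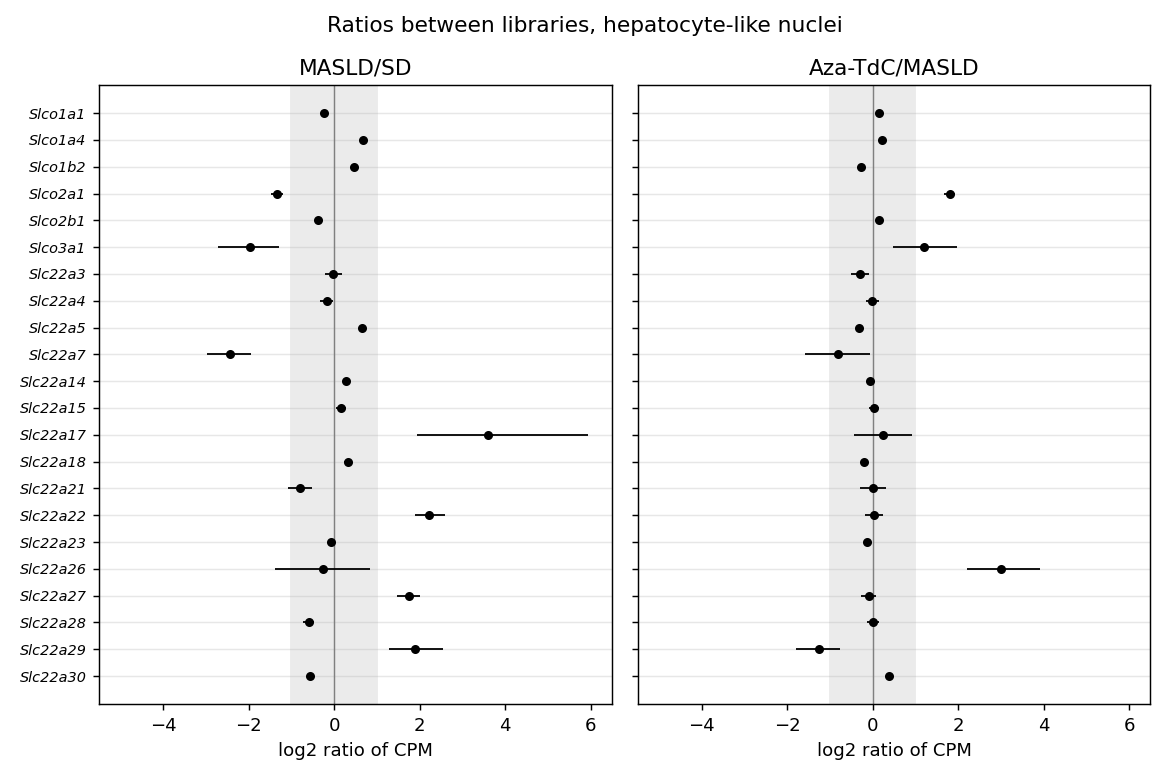
Log2 ratios of CPM in hepatocyte-like nuclei, MASLD over SD at left and Aza-TdC over MASLD at right, for 22 of the 23 measured genes; bars are exact conditional binomial 95% intervals for counting error and the grey band marks ratios under 2-fold. Most of them lie in the band in both panels, with Slc22a7 at -2.44 and Slc22a22 at 2.23 outside it at left and Slc22a26, 8.02-fold higher, outside it at right.

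Position in the lobule was read within each library from a score of 12 central vein and 12 portal marker genes, none of them a transporter listed here, by which the nuclei were ranked and cut into 3 equal zones. A zone is a range of ranks, and the same rank in 2 libraries need not be the same place. Markers kept out of the score lay on the side their names give: the 6 pericentral ones had median log2 ratios, pericentral over periportal zone, of 1.80 in SD and 3.77 in MASLD and a higher one in Aza-TdC, and the 5 periportal ones -0.55, -2.33 and -1.50. The markers' own contrast was thus wider in the MASLD diet libraries. By this ratio 7 of 21 measured transporter genes were pericentral in SD by at least 2-fold (background 3.79% of 13384 genes) and 2 periportal (background 2.75%). In MASLD 8 of 21 were pericentral (background 4.29% of 13743) and 3 periportal (background 4.14%), and in Aza-TdC 9 of 22 were pericentral (background 3.71% of 13954) and 1 periportal (background 4.29%). The medians of the transporter genes were 0.56, 0.29 and 0.47, against -0.02, -0.04 and -0.05 over all genes.

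Slc22a3 was steeply pericentral, and its pericentral zone had 24.1 CPM in SD, 24.7 CPM in MASLD and 20.6 CPM in Aza-TdC against 1.12, 1.03 and 0.589 CPM in the periportal zone. Its zone log2 ratios were 4.42 (3.71 to 5.25), 4.58 (3.81 to 5.46) and 5.13 (4.23 to 6.20). When the ranks were cut into 9 steps, the step nearest the central vein alone held 80.1%, 82.6% and 83.8% of its UMIs (SD, MASLD and Aza-TdC). The next step held far less, 5.89 against 62.4 CPM in SD. Slc22a3 is also among the 10 leading genes of clusters 4 and 16, the clusters led by Slc1a2 and Glul. It overlaps the plasminogen gene Plg on the other strand, and Plg had zone log2 ratios of 0.07, -0.26 and 0.05, unlike Slc22a3. Slc22a27 was steeply pericentral as well, with 8.56, 24.2 and 30.5 CPM in the pericentral zone against 0.21, 0.517 and 0.648 CPM in the periportal zone (zone log2 ratios 5.35, 5.55 and 5.56). Under 8 alternatives the SD value was at least 4.35 and the Aza-TdC value at least 5.38. The MASLD value was 3.50 with pericentral markers alone and 3.83 with nuclei classed by their own markers. Slc22a3 in MASLD was at least 4.53 under its alternatives, so the order of the 2 genes there depends on the setting. The middle zone of Slc22a27 differed between libraries, at 1.46 CPM in SD, 10.7 CPM in MASLD and 1.77 CPM in Aza-TdC. Slc22a29 had 24 UMIs in the pericentral and 0 in the periportal zone of SD, a zone log2 ratio of at least 2.87 against a floor of 3 counts, and ratios of 4.65 (3.05 to 6.95) and 5.59 (3.04 to 10.92) in MASLD and Aza-TdC. With nuclei classed by their own markers they were 1.68 and 2.93. That setting leaves 1189 MASLD and 3740 Aza-TdC nuclei. Slc22a29 had 100 and 50 UMIs in these libraries before it, so the 2 values rest on few UMIs. Slc22a26, measured in the Aza-TdC library alone, had 124 UMIs in its pericentral and 4 in its periportal zone (4.96, 3.57 to 6.86).

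**Figure D3:**
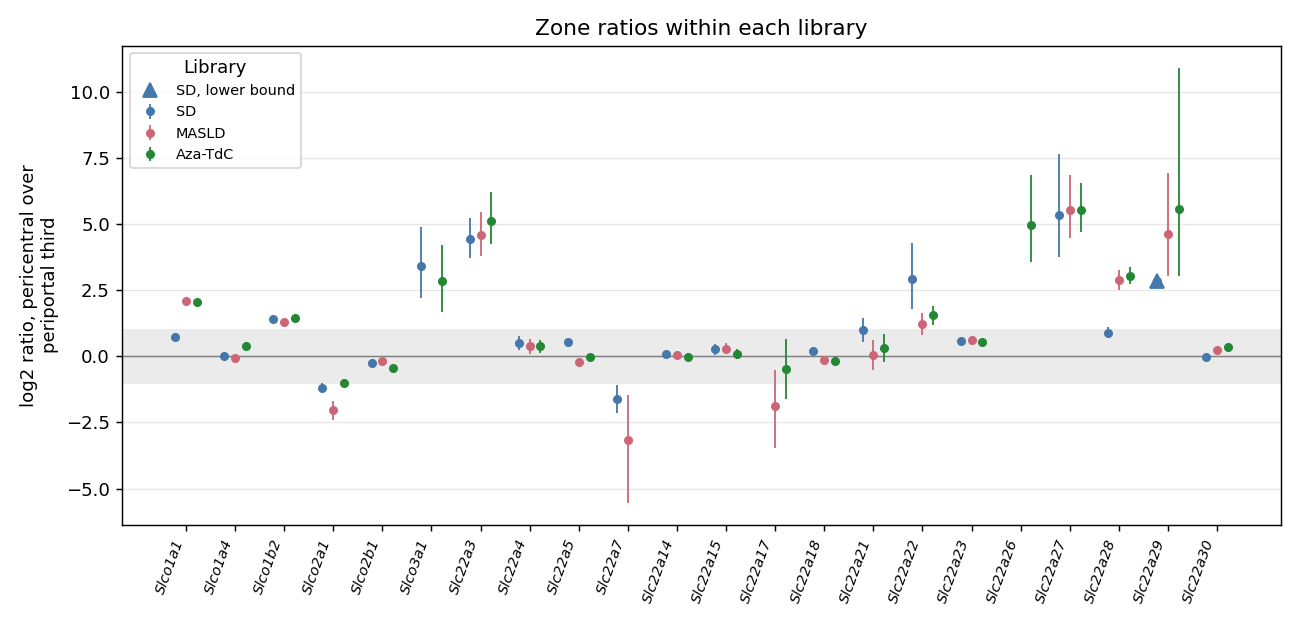
Log2 ratio of the pericentral over the periportal zone within each library, for the genes described here with at least 20 UMIs in both zones together; bars are 95% intervals for counting error, the triangle is a lower bound, and the grey band marks ratios under 2-fold. Slc22a3, Slc22a27 and Slc22a29 lie far above the band, Slco2a1 and Slc22a7 below it, and Slco1a1 and Slc22a28 are inside it in SD and above it in the other libraries.

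Slco1a1 was nearly level in total while its place in the lobule differed. In SD it had 245 CPM in the periportal, 337 CPM in the middle and 402 CPM in the pericentral zone. In MASLD the zones had 113, 236 and 489 CPM, and in Aza-TdC 144, 192 and 596 CPM. The periportal zone of MASLD over SD was past 2-fold (log2 ratio -1.11, -1.20 to -1.03). The periportal zone was lower and the pericentral zone higher in both MASLD diet libraries, and the zone log2 ratio was 0.72 (0.66 to 0.78) in SD against 2.11 (2.03 to 2.19) in MASLD, with Aza-TdC at 2.05 (1.99 to 2.11). Under 8 alternatives to the score and the nuclei it stayed between 0.61 and 0.81 in SD, 1.93 and 2.24 in MASLD and 1.96 and 2.31 in Aza-TdC. Slc22a28 was also lower periportally, with 20.1 CPM in the periportal zone of SD against 4.87 and 5.07 CPM in MASLD and Aza-TdC. Its pericentral zone had 37.6, 35.9 and 42.2 CPM, and in MASLD over SD that zone did not differ beyond counting error (log2 ratio -0.07, -0.24 to 0.11). In Aza-TdC over MASLD its middle zone was lower (-0.93, -1.29 to -0.57) and its pericentral zone higher (0.23, 0.07 to 0.40). The zone log2 ratios of Slc22a28 were 0.90 (0.70 to 1.11), 2.88 (2.51 to 3.27) and 3.06 (2.73 to 3.40). Slc22a30 was flat in SD, with 635 CPM in the periportal and 618 CPM in the pericentral zone, and was lower periportally in MASLD (406 against 476 CPM) and Aza-TdC (505 against 654 CPM). The markers kept out of the score also had wider contrasts in these 2 libraries, as given above, and whether the wider gradients of Slco1a1 and Slc22a28 go beyond that was not tested.

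Not every pericentral gene widened. Slco1b2 had 873 CPM in the periportal and 2355 CPM in the pericentral zone of SD, 1304 and 3213 CPM in MASLD, and 1109 and 3030 CPM in Aza-TdC, with zone log2 ratios of 1.43, 1.30 and 1.45. Its middle zone in Aza-TdC was nearer to the periportal one, at 1322 CPM, against 1513 CPM in SD and 2144 CPM in MASLD. Slc22a22 was less steep with the diet, at 2.92 (1.78 to 4.29) in SD against 1.22 (0.82 to 1.64) in MASLD, with Aza-TdC at 1.56 (1.20 to 1.92), and its periportal zone had 0.491, 5.24 and 5.19 CPM. In Aza-TdC over MASLD its middle zone was lower (-0.47, -0.87 to -0.07) and its pericentral zone higher (0.32, 0.04 to 0.61). Slc22a5 was mildly pericentral in SD (0.55, 0.43 to 0.67) and reversed in sign, under 2-fold, in MASLD (-0.21, -0.32 to -0.11), where its periportal zone had 124 CPM against 61.0 CPM in SD. Slco3a1 was pericentral in SD (3.41, 2.22 to 4.91) and in Aza-TdC (2.84, 1.69 to 4.23) and too rare to measure in MASLD.

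Few of the genes were periportal. Slco2a1 had 49.5 CPM in the periportal and 21.5 CPM in the pericentral zone of SD, 23.9 and 5.83 CPM in MASLD, and 62.4 and 31.0 CPM in Aza-TdC. Its zone log2 ratios were -1.20 (-1.40 to -1.02), -2.04 (-2.40 to -1.68) and -1.01 (-1.16 to -0.86), so MASLD was the steepest as well as the lowest library. The Aza-TdC value passed 2-fold under 4 of 8 alternatives, with -0.85 the nearest to 0. Slc22a7 was periportal in SD, with 7.92 against 2.62 CPM (-1.60, -2.15 to -1.07), and in MASLD, with 26 UMIs against 3 (-3.17, -5.54 to -1.46). With nuclei classed by their own markers the MASLD value was -0.64. That class rule keeps 1189 of the 5974 MASLD nuclei, and Slc22a7 had only 38 UMIs in the 5974. Slc22a17 in MASLD had 21 UMIs in the periportal and 6 in the pericentral zone (-1.86, -3.46 to -0.50). Under that same class rule the value was -0.90, on fewer UMIs still. Its ratio in Aza-TdC was -0.46 (-1.61 to 0.65). The genes with zone log2 ratios between -1 and 1 in all 3 libraries included Slc22a23 (0.56, 0.62 and 0.56), Slc22a4 (0.50, 0.39 and 0.38), Slco2b1 (-0.24, -0.18 and -0.46), Slc22a14, Slc22a15 and Slc22a18. Slco1a4 was level in SD (0.00) and MASLD (-0.05) and mildly pericentral in Aza-TdC (0.38, 0.33 to 0.43). In Aza-TdC over SD its pericentral zone was past 2-fold higher (log2 ratio 1.12, 1.05 to 1.19). Slc22a21 lay at 0.99 (0.55 to 1.44) in SD, and 4 alternatives put it past 2-fold.

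**Figure D4:**
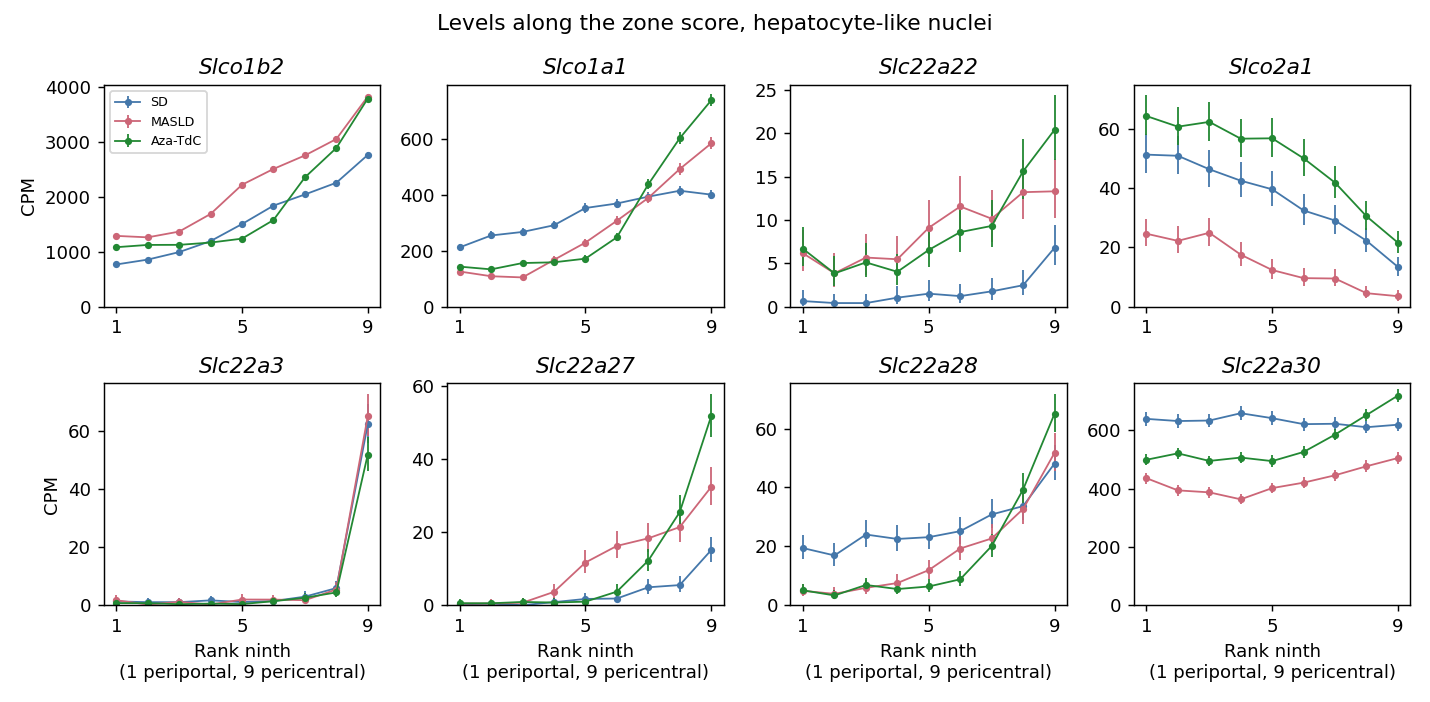
Levels in CPM along 9 equal steps of the zone rank, from the most periportal (1) to the most pericentral (9), for 8 genes in the 3 libraries; bars are Poisson 95% intervals. Slco1a1 flattens toward the central vein in SD, at 212 CPM in step 1, 352 CPM in step 5 and 400.1 CPM in step 9. In Aza-TdC it bends upward, from 143 to 737 CPM, while Slc22a3 peaks in the last step, at 62.4, 65.3 and 52.0 CPM.

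Along the 9 steps, Slco1b2 had 767 CPM in the most periportal and 2758 CPM in the most pericentral step of SD, 1287 and 3819 CPM in MASLD, and 1081 and 3784 CPM in Aza-TdC. In Aza-TdC its level moved from 1575 CPM in step 6 to 2350.4 CPM in step 7, a sharper bend than in SD, with 1837 and 2039.6 CPM in those steps. Slco2a1 was lower toward the central vein, from 51.3 to 13.4 CPM in SD, 24.6 to 3.53 CPM in MASLD and 64.3 to 21.6 CPM in Aza-TdC.

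The share of nuclei with at least 1 UMI was read after thinning each nucleus to 2000 UMIs, which left out 147, 94 and 91 shallower hepatocyte-like nuclei in SD, MASLD and Aza-TdC. Slco1b2 was found in 88.24% (87.45 to 89.00, exact Clopper-Pearson) of SD nuclei, 92.72% (92.03 to 93.37) of MASLD nuclei and 89.63% (88.87 to 90.35) of Aza-TdC nuclei, and unthinned in 98.21%, 98.49% and 98.32%. A Slco1b2 UMI was also found in 35.66% of macrophage-like nuclei in MASLD and 66.67% of endothelial-like nuclei in SD at that depth, and free RNA and doublets, which were kept, cannot be told apart there. The median depth before thinning was 6359 UMIs in hepatocyte-like, 2604 in macrophage-like and 1828 in endothelial-like nuclei. Slco1a1 was found in 43.87% (42.68 to 45.07), 33.45% (32.25 to 34.67) and 35.82% (34.67 to 36.98) of hepatocyte-like nuclei of SD, MASLD and Aza-TdC (unthinned 74.16%, 57.95% and 61.47%), against 19.05%, 16.67% and 19.05% of endothelial-like nuclei. In the periportal zone Slco1a1 was in 36.19% of nuclei in SD and 16.67% in MASLD. In the MASLD library it was also in 16.67% of 72 endothelial-like nuclei (8.92 to 27.30) and in 6.99% of macrophage-like nuclei. Those classes hold hepatocyte RNA themselves. How far background enters the periportal value, and with it the zone ratio in MASLD, was not tested. In the pericentral zone Slco1a1 was in 50.87% of nuclei in SD and 53.49% in MASLD.

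Hepatocyte RNA was present in every class. The hepatocyte markers stood in the other named classes at median levels from 0.486 times (macrophage-like) to 0.908 times (B-like) their hepatocyte-like level. Slco1b2 stood there at 0.317 to 0.496 times its own hepatocyte-like level, below the marker median in each of these 6 classes, so no expression is read from its UMIs there. A few members were higher elsewhere than in hepatocyte-like nuclei. Slco3a1 was highest in stellate-like nuclei, with 283 CPM in SD, 244 CPM in MASLD and 354 CPM in Aza-TdC over 67, 75 and 76 UMIs. Slco2b1 was also highest in stellate-like nuclei, with 380 CPM in SD, 270 CPM in MASLD and 284 CPM in Aza-TdC, against 113 CPM over all hepatocyte-like nuclei. Slco2a1 was highest in mesothelial-like nuclei, at 224, 335 and 342 CPM over 19, 50 and 57 UMIs. Slc22a21 stood at 22.5 CPM in mesothelial-like nuclei on 9 UMIs, against 4.95 CPM in hepatocyte-like nuclei. Slc22a4 had 25.0 CPM in mesothelial-like nuclei on 10 UMIs, not beyond counting error from its 16.6 CPM in hepatocyte-like nuclei. Slc22a15 had 36.2 CPM in endothelial-like nuclei, where its interval lay just above the 25.5 CPM of hepatocyte-like nuclei. Its higher levels in mesothelial-like and stellate-like nuclei were within counting error, and in macrophage-like nuclei it was lower, at 10.1 CPM. Slc22a17 in macrophage-like nuclei had 0 UMIs in SD, 1 UMI in MASLD and 30 UMIs in Aza-TdC, the last in 28 of 324 nuclei with at most 2 UMIs each. It stood at 26.3 CPM there against 1.36 CPM in MASLD, where 244 nuclei were read. The make-up of this class differed between libraries. In a finer clustering (Leiden resolution 2) 165 MASLD nuclei and 301 Aza-TdC nuclei lay in the cluster led by Clec4f and Cd5l, and 79 and 29 nuclei in an unnamed cluster led by genes such as H2-Eb1, Flt3 and Ccr2. Within the Clec4f cluster, a comparison added after seeing the data, Slc22a17 had 0 UMIs in MASLD and 30 UMIs in Aza-TdC (28.5 CPM), and Slco2a1 had 9 UMIs (18.0 CPM) and 68 UMIs (64.5 CPM).

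**Figure D5:**
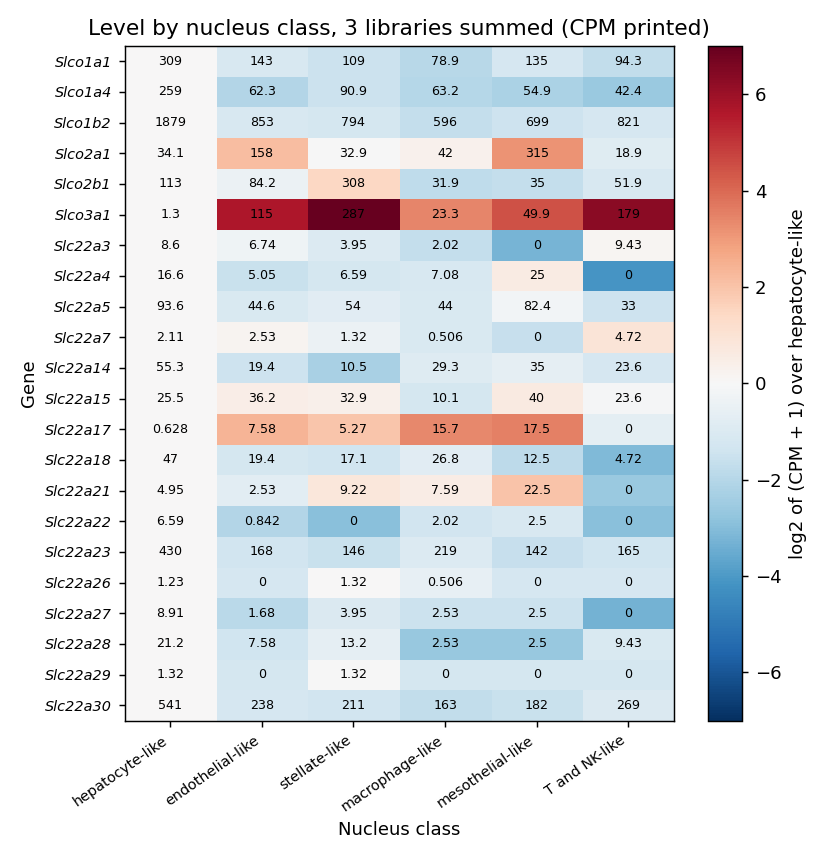
Level in CPM by nucleus class, summed over the 3 libraries and printed in each cell, with colour for log2 of CPM + 1 over the hepatocyte-like value. Red cells show Slco3a1 in stellate-like (287 CPM) and T and NK-like nuclei, Slco2a1 in mesothelial-like (315 CPM) and endothelial-like nuclei and Slc22a17 in macrophage-like nuclei; Slco6d1 is among the genes left out.

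Other transporters of the hepatocyte membrane were read from a list of 25. In MASLD over SD 4 of 22 measured genes were higher by at least 2-fold and 2 lower (18.2% and 9.09%, against 13.5% and 5.21% of all measured genes), with a median of 0.21 against 0.15. The higher ones were the efflux pump genes Abcc4 (3.63, from 72 to 829 UMIs), Abcb1a (1.53) and Abcg2 (1.48) and the monocarboxylate transporter Slc16a1 (1.13). The lower ones were Abcb1b (-1.86) and the aromatic amino acid transporter Slc16a10 (-1.14). In Aza-TdC over MASLD 2 of 23 were higher, Abcc4 (1.39) and the phosphate and urate transporter gene Slc17a1 (1.12), and 0 lower, against 3.16% and 5.25% of all genes. In Aza-TdC over SD 6 of 22 were higher and 2 lower, against 10.6% and 5.14%. Abcc4, which exports bile salts and conjugates back to blood, shared the pericentral place of Slc22a3 and Slc22a27, with 3.39, 47.3 and 147 CPM in the pericentral zone against 0.14, 1.33 and 1.59 CPM in the periportal zone. Slc10a1, the sodium-dependent bile salt transporter, had 242, 186 and 243 CPM in SD, MASLD and Aza-TdC. Abcb11, the bile salt export pump, had 298, 285 and 555 CPM, a log2 ratio of 0.96 (0.93 to 0.99) for the drug on top of the diet. Slc47a1, which exports organic cations, had 316, 367 and 366 CPM.

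Regulators of these genes were read from a list of 30. In MASLD over SD 5 of 30 were higher and 3 lower by at least 2-fold, in Aza-TdC over MASLD 3 and 1, and in Aza-TdC over SD 5 and 1. The shares of all genes were those given for the partner transporters, so the 5 higher genes (16.7%) of the first comparison stand near the background of 13.5%. With the diet the non-coding RNA gene Airn (1.79), the lipid-storage receptor Pparg (1.79), Igf2r (1.14), Foxa2 (1.02) and Cebpa (1.01) were higher, and the liver factors Cux2 (-3.50), Onecut1 (-1.78) and Foxa3 (-1.27) lower. Cux2, a repressor that is read mainly in female liver, had 73 UMIs in SD, 6 UMIs in MASLD and 2838 UMIs in Aza-TdC, a log2 ratio of 8.62 (7.50 to 10.07) in Aza-TdC over MASLD. Esr1 (1.14) and Nr0b2 (1.01) were also higher and Onecut1 (-1.30) lower in that comparison. Airn lies in the imprinted domain on chromosome 17 that holds Slc22a3, Slc22a2 and Igf2r, and its transcription silences Igf2r, and in placenta also Slc22a2 and Slc22a3, on the paternal copy. It had 67.8 CPM in SD, 235 CPM in MASLD and 122 CPM in Aza-TdC, with Igf2r at 26.2, 57.9 and 37.4 CPM. Slc22a3 did not follow them, at 9.32, 9.20 and 7.47 CPM. By zone Airn was pericentral like Slc22a3, with 161 against 10.4 CPM in SD, 424 against 83.3 CPM in MASLD and 292 against 24.2 CPM in Aza-TdC.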

How the data were processed

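Single-nucleus 3' RNA counts were deposited as a filtered matrix of UMI counts per gene and nucleus for each of 3 libraries; per the file headers they were made with Cell Ranger 6.1.2, and the submitters' processing notes list GRCm38, mm10 and Seurat 4.4.0. Neither strand use nor intron counting is stated in the sources. The filter kept nuclei that had 500 UMIs or more, 300 genes or more and a mitochondrial share of up to 5%. They were clustered together without integration with scanpy 1.11.5 (3000 variable genes, 30 principal components, 15 neighbours, Leiden resolution 1, 17 clusters; Python 3.11.15, igraph 0.11.9, scikit-learn 1.9.0). A cluster took a class name where at least 3 markers stood out with a median log2 ratio of at least 3 over other nuclei, and hepatocyte-like otherwise where at least 3 hepatocyte markers reached 0.25 of their highest level. These thresholds were changed after the clusters were seen. No doublet caller was run, so possible doublets were kept.

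UMIs were summed per library over hepatocyte-like nuclei and scaled to CPM with exact Poisson intervals, and ratios have exact conditional binomial intervals (scipy 1.17.1, numpy 2.4.6, pandas 2.3.3). A ratio was measured with at least 20 UMIs over both sides, and a gene counted as higher or lower past 2-fold. With 1 library per group no test was made. A zone score, the mean standardized log level of 12 pericentral less that of 12 periportal markers, ranked nuclei within each library. The 41292969 to 49657813 UMIs of hepatocyte-like nuclei per library put the level that 0 UMIs allows, taken as 3 counts, at 0.0604 to 0.0727 CPM. Gene models are from GENCODE vM21 (39 of 39 genes matched), promoters from RefSeq GRCm38.p6, and figures were drawn with matplotlib 3.10.9. Calculations were tested on simulated data. The transporter genes, partner lists and tests were chosen with earlier results of these data known. Every transporter with at least 20 UMIs over the 3 libraries is named, except 1 that is counted but not reported here; of each other list the 8 largest past 2-fold in MASLD over SD or Aza-TdC over MASLD, plus Slc10a1, Abcb11, Slc47a1, Airn and Igf2r, while Nr0b2 and Cebpa lie outside this rule and were named after their values were seen. Alternatives changed the scaling, nucleus filters, clustering, class rule, count minimum, fold and zone score.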

Additional observations from a re-analysis of the deposited data

How the results depend on the processing

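No paired analysis was possible because each group has 1 library. Slco3a1 in Aza-TdC over MASLD reversed to -0.52 with nuclei classed by their own markers, which leaves 4957, 1189 and 3740 nuclei; the cause was not tested. At a fold of 1.5 the counts were larger by construction, and so were the shares of all measured genes, given here as higher/lower: in MASLD over SD 7 transporters were higher and 5 lower, 7 partners higher and 8 regulators higher (all genes 25.7/11.4%); in Aza-TdC over MASLD 3 transporters were lower, 4 partners higher and 6 regulators lower (7.79/13.6%); in Aza-TdC over SD 4 transporters were lower, 10 partners higher, 9 regulators higher and 5 lower (19.8/11.8%). Without clusters led by another class's marker (6857, 452 and 6705 nuclei) MASLD over SD had 7 transporters higher, 0 partners lower, 9 regulators higher and 1 lower (all genes 15.6/6.64%), and Aza-TdC over MASLD had 5 transporters lower, 1 partner higher and 2 lower, and 4 regulators lower (5.56/10.7%). Median-ratio scaling, which shifted the median of all genes in MASLD over SD by -0.12, gave 3 regulators higher there and 2 lower in Aza-TdC over SD (all genes 11.3% and 5.48%). Without the 5% deepest nuclei 2 regulators were lower in Aza-TdC over MASLD (5.01%). A limit at the lowest library's median mitochondrial share was chosen after seeing the data. In nuclei up to it, 0 transporters and 2 regulators were lower in Aza-TdC over MASLD (6.49%). In Aza-TdC over SD, 2 transporters were lower, 3 regulators higher and 2 lower (9.82/3.99%). The own-marker class and equal zone weights each gave 2 regulators lower in Aza-TdC over SD (5.17% and 5.12%). By zone, 4 transporters were pericentral in SD at a minimum of 100 UMIs (all genes 2.37%). In MASLD 1 was periportal with the outer 20% of ranks on each side, at 100 UMIs or in the own-marker class (4.49%, 2.49% and 3.14%). In Aza-TdC 0 were periportal with the marker-UMI share, pericentral markers alone, the score from thinned nuclei or the own-marker class (3.64 to 4.46%). The causes of these differences were not tested except where named. Depth limits the genes under 100 UMIs most, and replicate variation cannot be estimated.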

Other observations

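Prostaglandin and iron-handling transporter genes were also read in macrophage-like nuclei. Slco2a1, the prostaglandin transporter gene, had a UMI in 1 of 33 macrophage-like nuclei of SD, 10 of 244 of MASLD and 53 of 324 of Aza-TdC, with at most 3 UMIs in a nucleus. Slc22a17, the lipocalin 2 receptor gene, had a UMI in 28 of 324 such nuclei of Aza-TdC and in 1 of 244 of MASLD. Thinned to 2000 UMIs, Slco2a1 was found in 2.80% of 143 macrophage-like nuclei of MASLD and 9.42% of 223 of Aza-TdC, and Slco1b2, the hepatocyte uptake transporter gene, in 35.66% and 45.29%. At Leiden resolution 2, a setting added here after seeing the data, the cluster led by Clec4f and Cd5l kept 165 MASLD and 301 Aza-TdC nuclei, of which 9 and 51 had a Slco2a1 UMI and 0 and 28 a Slc22a17 UMI. These are counts of nuclei from 1 library each.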
